A study of Rattus norvegicus with 24 samples.

Results

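Metallothionein and zinc handling was described in the medial gastrocnemius muscle of rats with cardiac cachexia (CC), the muscle wasting that comes with heart failure, as a set of 6 named genes. The set was Mt2A, Mt1 and Mt3 (metallothioneins), Mtf1 (a transcription factor), Slc39a14 (a zinc importer) and Slc30a1 (a zinc exporter). The genes were matched by symbol, and 4 of the 6 were among the 10851 genes analysed: Mt2A (ENSRNOG00000043098), Mtf1 (ENSRNOG00000025724), Slc39a14 (ENSRNOG00000009832) and Slc30a1 (ENSRNOG00000004749). Mt1 and Mt3 had no row in the table, which holds no count under 10 in any rat, and were not analysed here. The set was chosen by the saline against monocrotaline contrasts of these same rats, in which Mt2A had a large Log2FC. The differences between saline and monocrotaline rats are therefore given for the members as a description, with no test. The study's own lists of its most upregulated genes do not name Mt2A. These show only the top genes of each comparison, and its full list, in a supplement, is not described here.

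The animals were 24 male Wistar rats, 6 per group and 1 library per rat, and the left muscle was sequenced from poly-A RNA. CC-Sed (sedentary) and CC-Ex (trained on a treadmill for 4 weeks) received a single intraperitoneal injection of monocrotaline at 60 mg/kg, a plant toxin that damages the lung vessels and overloads the right heart. Sed and Ex were their sedentary and trained controls and received saline. The ages were not given in the sources used here, and CC rats that died or showed no right heart remodeling were not in the sequenced groups. Total counts lay between 37816239 and 50350554 per rat. Skeletal muscle fibre markers, such as Acta1 and Ckm, summed to between 115020 and 242904 CPM (counts scaled to a common library size by TMM) across the rats, with 9 of 10 of these markers in the table (Myh1 was not). On the leading principal component of log2 CPM, which held 39.7% of the variance, CC-Ex replicate 5 stood apart at 96.5, against -16.7 to 16.8 in the other CC-Ex rats. Results that rest on this rat are given with and without it.

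Metallothioneins are small cysteine-rich proteins that bind zinc and copper and buffer the free zinc of the cell. Zinc enters the cytosol through importers of the ZIP family (Slc39a genes) and leaves it through exporters of the ZnT family (Slc30a genes). When free zinc rises, the zinc-finger factor MTF-1, encoded by Mtf1, binds metal response elements (MREs) in the promoters of metallothionein genes and of Slc30a1 and switches them on. Metallothioneins are also known to be induced by glucocorticoids and by IL-6, and Slc39a14 by IL-6. Metallothionein mRNA is known to be raised in wasting muscle of several conditions.

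The promoters of the metallothioneins and of the exporters are shown because the MRE is the feature by which these genes are known to be read together. The sequences are the 250 bases before the annotated start in RefSeq, build GRCr8, 5′ to 3′ on the strand of the gene. The expression table was made on another build, mRatBN7.2. Capitals mark the MRE core, searched as TGCACNC or TGCGCNC on both strands, where N is any base.
Mt2A: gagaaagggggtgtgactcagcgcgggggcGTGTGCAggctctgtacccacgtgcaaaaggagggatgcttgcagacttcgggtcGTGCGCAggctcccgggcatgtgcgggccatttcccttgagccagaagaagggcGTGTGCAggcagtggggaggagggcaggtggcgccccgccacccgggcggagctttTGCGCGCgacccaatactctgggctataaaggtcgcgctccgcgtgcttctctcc
Mt1: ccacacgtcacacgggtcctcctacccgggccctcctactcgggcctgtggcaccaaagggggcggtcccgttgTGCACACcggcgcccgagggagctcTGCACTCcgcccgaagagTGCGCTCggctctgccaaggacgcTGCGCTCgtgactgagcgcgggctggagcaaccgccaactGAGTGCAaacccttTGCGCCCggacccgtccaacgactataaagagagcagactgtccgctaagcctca
Slc30a1: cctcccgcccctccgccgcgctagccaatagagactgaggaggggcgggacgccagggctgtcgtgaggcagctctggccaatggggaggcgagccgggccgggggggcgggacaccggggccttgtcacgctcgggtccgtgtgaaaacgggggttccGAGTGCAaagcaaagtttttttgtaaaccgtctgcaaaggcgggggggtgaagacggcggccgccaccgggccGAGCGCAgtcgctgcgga
Slc30a2: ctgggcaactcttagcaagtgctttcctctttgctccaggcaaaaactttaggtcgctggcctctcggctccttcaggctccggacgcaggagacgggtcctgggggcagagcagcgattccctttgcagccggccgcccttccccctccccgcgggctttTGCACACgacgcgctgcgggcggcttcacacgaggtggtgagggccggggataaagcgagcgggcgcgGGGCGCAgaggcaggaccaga
The Mt2A window lies on the minus strand at chr19:10838709-10838958, that of Mt1 on the minus strand at chr19:10832976-10833225, and those of Slc30a1 and Slc30a2 on the plus strand at chr13:106021769-106022018 and chr5:151843201-151843450. The Mt2A promoter held 4 MRE cores, beginning 220, 165, 111 and 55 bases before the start. At least 4 were found in 0.266% of the 33469 RefSeq promoters. The Mt1 promoter held 6 cores, a number reached by 0.0269% of the promoters. Slc30a1 had 2 cores, 91 and 18 bases before the start, and Mtf1 had 2, at 249 and 51 bases. At least 2 occurred in 4.90% of the promoters. The Mt3 promoter held 3 cores (1.17% of promoters with at least 3). For Slc30a2, another ZnT exporter, RefSeq gives 2 starts. The promoter shown held 2 cores and the other held 0. A match is a run of letters and not a measured site. Slc39a14 had no entry.

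Mt2A was near the floor of the table in the saline rats and high in most, but not all, of the monocrotaline rats. In Sed, the levels were 1.90, 1.25, 1.13, 1.68, 5.39 and 3.91 CPM in replicates 1 to 6. In Ex they were 4.51, 1.60, 0.587, 1.98, 2.25 and 3.92 CPM. The highest of the 12 saline rats was thus at 5.39 CPM. In CC-Sed the levels of replicates 1 to 6 were 87.6, 29.5, 120.8, 1.67, 17.4 and 337.9 CPM. In CC-Ex they were 1.59, 21.3, 34.7, 2.21, 1295 and 47.5 CPM. Of the CC rats, 5 of 6 in CC-Sed were above the highest Sed rat and 4 of 6 in CC-Ex were above the highest Ex rat. The other 3 (CC-Sed replicate 4 and CC-Ex replicates 1 and 4) lay within the range of the saline rats, so the groups overlapped. As a description, the Log2FC from saline to monocrotaline was 5.28 (SE 1.37) without training and 6.56 (SE 1.46) with training. Without CC-Ex replicate 5 the latter was 3.09.

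**Figure D1:**
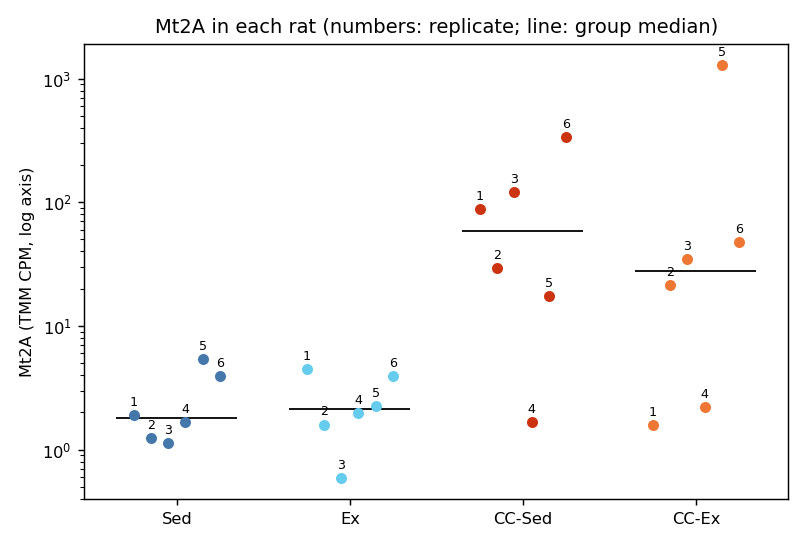
Mt2A expression in each rat (TMM-scaled CPM, log axis) by group. Points are rats, numbers are replicates and lines are group medians. Of the 12 CC rats, 9 lie above all rats of their saline control group and 3 lie among them.

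The counts behind these levels were small in the saline rats and large in some CC rats. Mt2A had between 24 and 263 counts per saline rat, 60 counts in CC-Sed replicate 4, 16614 in CC-Sed replicate 6 and 55195 in CC-Ex replicate 5. In that last rat Mt2A held 0.136% of all counts and ranked 72 among the 10851 genes, whereas in Ex replicate 3 it ranked 10721. Rodent metallothioneins are close paralogs of each other, and Salmon assigns reads that match several transcripts by estimation, so a part of the Mt2A count may belong to a relative.

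Among rats of the same group, Mt2A was one of the most variable genes of the table. Its within-group SD was 2.30 on the log2 scale, rank 7 of 10851 genes, against 0.301 for the median gene. The ratio of the highest to the lowest rat was 4.76 among Sed rats and 7.69 among Ex rats, but 202 among CC-Sed and 813 among CC-Ex rats. Without CC-Ex replicate 5 the ratio in CC-Ex was 29.8, and the within-group SD of Mt2A was 1.88, rank 13. The other members were far steadier. Slc39a14 had a within-group SD of 0.118, and 2.94% of genes had a smaller one. The SD was 0.275 for Mtf1 and 0.357 for Slc30a1, with 43.7% and 61.3% of genes below.

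Slc39a14, also known as ZIP14, carries zinc, iron and manganese into cells. Its level in Sed ran from 13.7 to 17.2 CPM (median 16.5) and in Ex from 15.3 to 16.8 CPM (median 15.7). It ran from 16.8 to 21.4 CPM in CC-Sed (median 19.3), and in CC-Ex from 14.4 to 18.5 CPM (median 16.1). CC-Sed was the high group, with 5 of 6 rats above the highest Sed rat. As a description, the Log2FC after monocrotaline was 0.27 (SE 0.0795) in the sedentary rats and 0.018 (SE 0.0795) in the trained rats.

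Mtf1 and Slc30a1 overlapped between all groups. Mtf1 ran from 10.9 to 17.5 CPM in Sed (median 15.5), from 13.2 to 18.1 CPM in Ex (median 16.5), from 9.95 to 19.1 CPM in CC-Sed (median 12.0), and in CC-Ex from 9.78 to 17.5 CPM (median 14.4). All groups overlapped, and the Log2FC was -0.22 in Sed vs. CC-Sed and -0.16 in Ex vs. CC-Ex (SE 0.156 for both). Slc30a1, the exporter ZnT1 of the plasma membrane, ran from 3.70 to 7.57 CPM in Sed (median 4.84), from 4.45 to 8.72 CPM in Ex (median 6.71), from 4.73 to 6.48 CPM in CC-Sed (median 5.36), and in CC-Ex from 2.56 to 6.26 CPM (median 5.34). Its Log2FC was 0.039 in Sed vs. CC-Sed (SE 0.197). In the trained rats all 6 CC-Ex values lay below the Ex median, with a Log2FC of -0.43 (SE 0.196), and -0.30 without CC-Ex replicate 5. Ordered by median, each of Mtf1 and Slc30a1 spanned more within a group than between neighbouring groups.

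**Figure D2:**
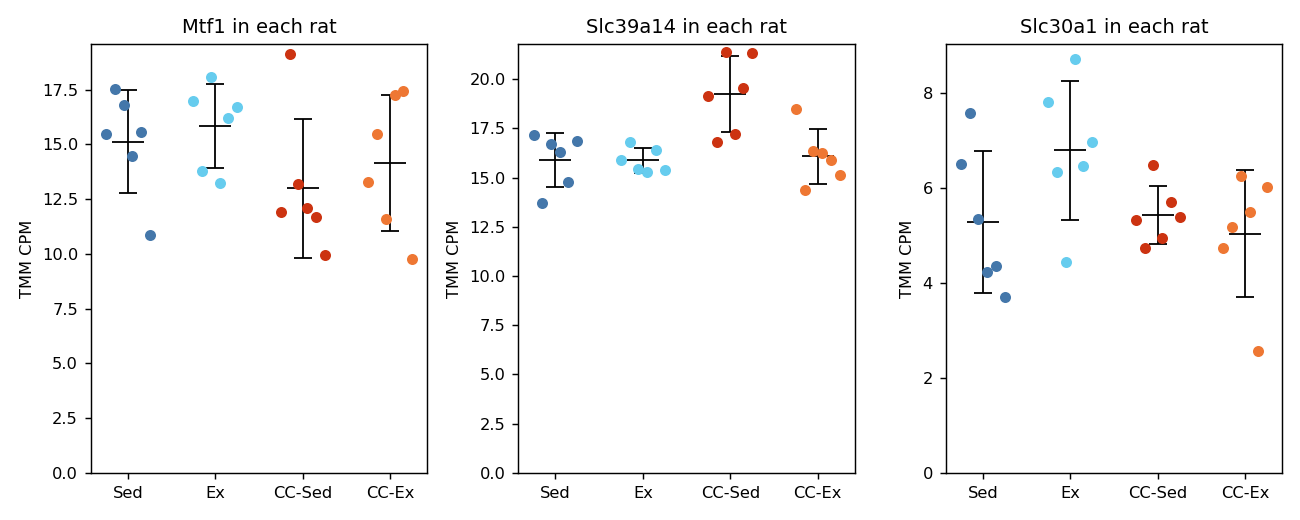
Mtf1, Slc39a14 and Slc30a1 in each rat (TMM-scaled CPM, linear axis from 0) by group. Points are rats and bars are the group mean ± SD (n = 6). Slc39a14 is highest in CC-Sed, at a median of 19.3 CPM.

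Training was tested next. These contrasts share rats with those on which the set was chosen (CC-Sed vs. CC-Ex the CC rats, Sed vs. Ex the saline rats and the interaction all of them), so their p-values for the members are not independent of the choice. Between CC-Sed and CC-Ex, 0% of the 10851 genes passed an adjusted p of 0.05 with edgeR, although 234 had an unadjusted p under 0.05. Between Sed and Ex it was also 0%, with 118 genes unadjusted, and for the interaction (the difference between the CC effects of trained and sedentary rats) 0%, with 154 unadjusted. DESeq2 and limma-voom gave 0 genes in all 3 as well. Of the members, Slc39a14 had the lowest p. All 6 CC-Ex rats were below the CC-Sed median and 5 were below the lowest CC-Sed rat, with a Log2FC of -0.26 in CC-Sed vs. CC-Ex (SE 0.0795, edgeR adjusted p = 0.9999). In a two-sided exact permutation test of 6 against 6 rats, the mean log2 CPM differed by -0.26 (p = 0.0130, and 0.104 after adjustment over the 8 tests of 4 members in the CC and saline rats). The difference therefore failed the correction. The interaction was -0.26 for Slc39a14 (SE 0.112, edgeR adjusted p = 0.9996).

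For Mt2A, the effect of training in CC rats had no settled direction. The fitted Log2FC in CC-Sed vs. CC-Ex was 1.24 (SE 1.15, edgeR adjusted p = 0.9999), but the mean of log2 CPM was lower in CC-Ex, with a difference of -0.71 (two-sided exact permutation p = 0.710, 0.947 adjusted). Without CC-Ex replicate 5 the fitted Log2FC was -2.18, and without CC-Sed replicate 6 it was 2.18. In Sed vs. Ex it was -0.040 (SE 1.20) and the interaction 1.28 (SE 1.66). Slc30a1 had the largest difference in saline rats, with a Log2FC of 0.36 in Sed vs. Ex (SE 0.196), and the exact permutation p was 0.104 (0.416 adjusted). Its Log2FC was -0.11 in CC-Sed vs. CC-Ex, and its interaction -0.47 (SE 0.278). Slc39a14 was at -0.0035 in Sed vs. Ex. Mtf1 had Log2FC values of 0.066 in Sed vs. Ex and 0.12 in CC-Sed vs. CC-Ex, with exact permutation p-values of 0.602 and 0.539, and an interaction of 0.057. An exact test of this size cannot give a p under 0.00216.

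The rest of the zinc transporters were read from the family lists, which were also chosen with earlier results of these data known. Of the other ZIP importers, 7 of 13 were in the table, and all 7 had a negative Log2FC in both CC contrasts. In Sed vs. CC-Sed 4 of the 7 fell and none rose, against the 2.16% of all genes called downward, and the median Log2FC of the 7 was -0.45, against 0.021 over all genes. In Ex vs. CC-Ex 1 of the 7 fell, against 0.12% of all genes, with a median of -0.35 (0.013 over all genes).

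Slc39a1 encodes ZIP1, an importer of the plasma membrane. In Sed it ran from 51.8 to 60.9 CPM (median 56.1), and in CC-Sed from 38.6 to 46.7 CPM (median 40.0). In Ex it ran from 52.2 to 62.0 CPM (median 55.1), and in CC-Ex from 33.6 to 50.4 CPM (median 41.3). No CC rat overlapped its control group. The share of all genes that separate in this way is not given here. The lack of overlap is therefore not read as a trait of Slc39a1 or of the importers below. The Log2FC was -0.45 in Sed vs. CC-Sed (SE 0.0898, edgeR adjusted p = 0.0103) and -0.41 with training (SE 0.0898, edgeR adjusted p = 0.0329). In the sedentary contrast the call held in all 12 fits with a rat left out. In the exercised contrast it held in 2 of the 12, those without CC-Ex replicate 1 or 4, with Log2FC values from -0.46 to -0.36 in all 12. The exercised call was also lost with upper-quartile scaling (adjusted p = 0.0566), with the library number as covariate (adjusted p = 0.0578) and when the 12 rats were fitted alone (adjusted p = 0.182).

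Slc39a3 encodes ZIP3, another importer of the plasma membrane. It ran from 11.9 to 17.2 CPM in Sed (median 13.8) and from 7.01 to 11.0 CPM in CC-Sed (median 9.45), without overlap. Its Log2FC was -0.63 in Sed vs. CC-Sed (SE 0.133, edgeR adjusted p = 0.0136), a call held in 12 of 12 fits with a rat left out. In the trained rats it was -0.13 in Ex vs. CC-Ex (edgeR adjusted p = 0.547), and the difference between the effects was 0.50 (SE 0.187, unadjusted p = 0.0139, edgeR adjusted p = 0.9996).

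Slc39a10 encodes ZIP10, likewise an importer of the plasma membrane. It ran from 8.88 to 14.1 CPM in Sed (median 11.2) and from 5.29 to 8.61 CPM in CC-Sed (median 7.47), again without overlap. The Log2FC was -0.66 in Sed vs. CC-Sed (SE 0.160, edgeR adjusted p = 0.0207) and -0.35 with training (edgeR adjusted p = 0.199). Without Sed replicate 3, CC-Sed replicate 3 or CC-Sed replicate 6 the sedentary call was lost, at adjusted p-values of 0.0589, 0.0508 and 0.0551, and 2 of the importers then passed.

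Slc39a13 encodes ZIP13, which releases zinc from intracellular vesicles and the Golgi. It ran from 19.3 to 30.6 CPM in Sed (median 23.8) and from 9.32 to 21.7 CPM in CC-Sed (median 14.7), with CC-Sed replicate 2 inside the range of Sed. The Log2FC was -0.66 in Sed vs. CC-Sed (SE 0.194, edgeR adjusted p = 0.0463) and -0.64 with training (SE 0.194, edgeR adjusted p = 0.0820). The sedentary call was kept in 2 of the 12 fits with a rat left out, without CC-Sed replicate 2 or 4. In the exercised contrast, DESeq2 (adjusted p = 0.0378) and limma-voom (adjusted p = 0.00900) called it.

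**Figure D3:**
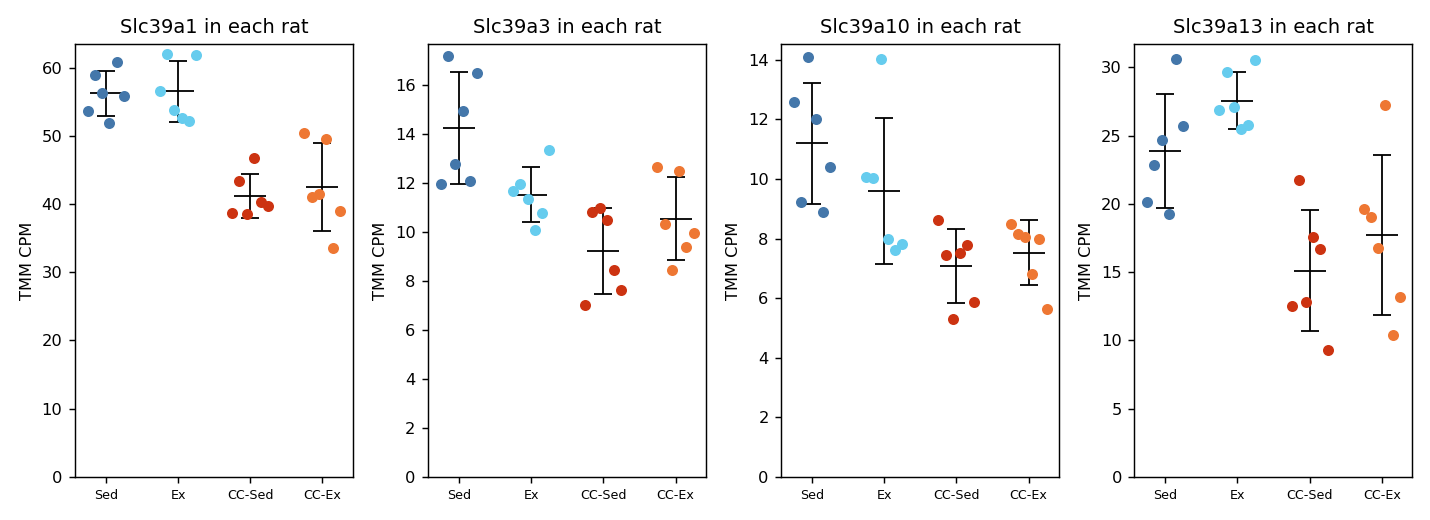
The 4 ZIP importers that fell in Sed vs. CC-Sed, in each rat (TMM-scaled CPM, linear axis from 0). Points are rats and bars are the group mean ± SD (n = 6). Slc39a1 shows no overlap between saline and CC rats in either pair of groups (the share of all genes without overlap is not given).

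The remaining importers did not pass the test. Slc39a9, Slc39a11 and Slc39a7 had Log2FC values of -0.23, -0.23 and -0.053 in Sed vs. CC-Sed, and of -0.073, -0.59 and -0.048 in Ex vs. CC-Ex.

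Of the other ZnT exporters, 6 of 9 were in the table and none passed the test in either CC contrast. The median Log2FC was 0.18 in Sed vs. CC-Sed and 0.035 in Ex vs. CC-Ex. Slc30a2, which loads zinc into vesicles and is known as a target of MTF-1, had the largest values. It ran from 0.763 to 5.47 CPM in Sed (median 1.24), from 0.344 to 3.30 CPM in Ex (median 1.52), from 1.29 to 42.1 CPM in CC-Sed (median 6.13), and in CC-Ex from 0.840 to 34.2 CPM (median 2.68). In each CC group, 3 of 6 rats were above the highest control rat. The Log2FC was 2.91 in Sed vs. CC-Sed (SE 0.942, edgeR adjusted p = 0.0619) and 2.40 with training (SE 0.936, edgeR adjusted p = 0.145). The sedentary difference passed with DESeq2 (2.88, adjusted p = 0.0162), and limma-voom also called it (2.34, adjusted p = 0.0292). Without CC-Ex replicate 5, the exercised Log2FC was 0.90. Slc30a7 and Slc30a4 had Log2FC values of 0.31 and 0.40 in Sed vs. CC-Sed (edgeR adjusted p = 0.138 and 0.220) and Slc30a6 of -0.28 (edgeR adjusted p = 0.0961). Slc30a5 and Slc30a9 were at 0.059 and -0.072.

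**Figure D4:**
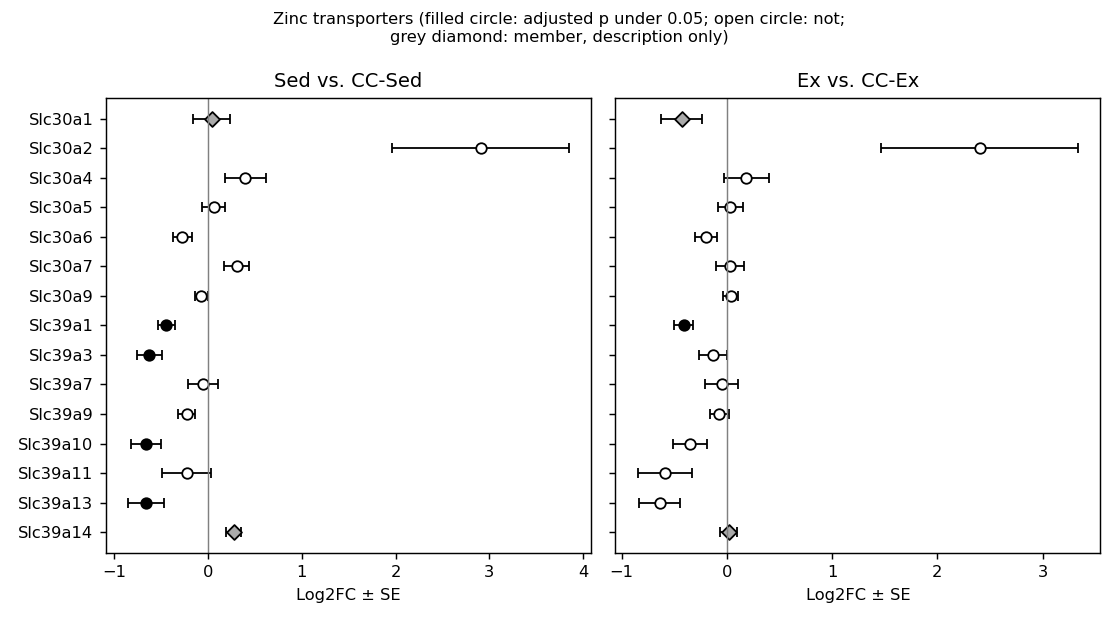
Log2FC ± SE of the 15 zinc transporters of the table, with sedentary rats on the left (Sed vs. CC-Sed) and trained rats on the right (Ex vs. CC-Ex). Filled circles have an adjusted p under 0.05, open circles do not, and grey diamonds are the members, given as a description. The 7 other ZIP importers lie left of 0 in both panels.

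No shared movement of the members from rat to rat was detected. After the group mean was taken out, the 6 pairs of members were correlated over the 24 rats and none passed (permutation within groups). The strongest pair was Mtf1 and Slc39a14, with Pearson r = -0.36 (permutation p = 0.138, 0.827 adjusted over 6 pairs) and Spearman rho = -0.37 (permutation p = 0.102, 0.615 adjusted). Without CC-Sed replicate 6 and CC-Ex replicate 6 its r was -0.44. With 1 rat left out its r ran from -0.50 to -0.20, and the unadjusted permutation p was under 0.05 in 1 of 24 fits. Mt2A and Mtf1 had r = -0.092 (permutation p = 0.744, 0.841 adjusted) and rho = -0.19 (permutation p = 0.420, 0.915 adjusted), and r = -0.26 without the 2 rats farthest from the median. For Mt2A and Slc30a1, r was -0.25 (permutation p = 0.328, 0.841 adjusted) and rho 0.023 (permutation p = 0.915, 0.915 adjusted), but r was 0.24 without CC-Sed replicate 6 and CC-Ex replicate 5, so the sign rests on those rats. Mt2A and Slc39a14 had r = 0.095 (permutation p = 0.710, 0.841 adjusted) and rho = 0.077 (permutation p = 0.747, 0.915 adjusted), and r = 0.0038 without those same rats.

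The genes most like Mt2A from rat to rat were found by the Spearman rho of group-centred log2 CPM over the 24 rats, as a description. The closest was Sat1, which acetylates spermidine and spermine for their breakdown and export, with rho = 0.96. It held in the 12 CC rats (0.93) and in the 12 saline rats (0.97). Sat1 was at 27.0 CPM in Sed replicate 5, the Sed rat with the highest Mt2A, against 8.47 to 14.4 CPM in the other Sed rats. It reached 74.0 CPM in CC-Sed replicate 6 and 80.9 CPM in CC-Ex replicate 5, and stayed at 12.1, 12.9 and 8.88 CPM in CC-Sed replicate 4, CC-Ex replicate 1 and CC-Ex replicate 4, the rats whose Mt2A was at the saline level. Next were Rbm28 (a nucleolar RNA-binding protein, 0.94) and Ctsl (the lysosomal protease cathepsin L, 0.93). Zswim4, Ssb (the La RNA-binding protein), Nudt21 (a cleavage factor of mRNA 3′ processing), Tp53inp1, C17h6orf62-ps1, Dnttip1 and Tbc1d17 followed, from 0.92 to 0.90. Without CC-Ex replicate 5, Sat1 was at 0.92 (rank 4), Nudt21 at 0.94 (rank 2) and Ctsl at 0.93 (rank 3). Slc30a2 had rho = 0.79 with Mt2A, rank 278, and 0.70 without CC-Ex replicate 5.

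**Figure D5:**
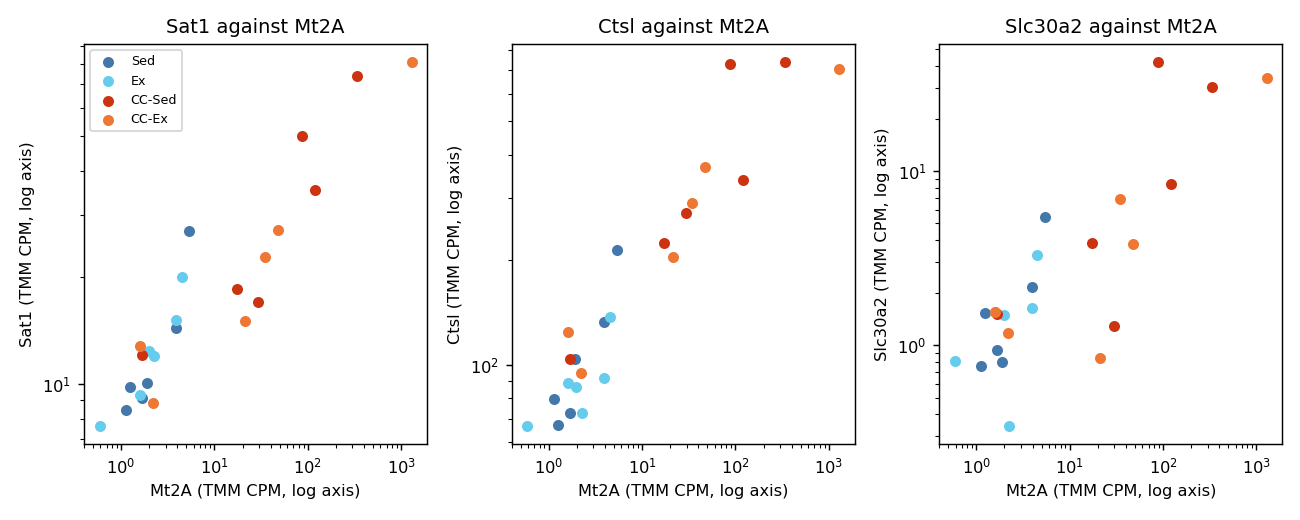
Sat1, Ctsl and Slc30a2 against Mt2A in the 24 rats (TMM-scaled CPM, both axes log), coloured by group. Sat1 and Mt2A keep nearly the same order of rats within the groups (rho = 0.96 after the group mean is taken out).

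Many genes shared this order of rats. The rho with Mt2A was above 0.6 for 13.8% of the genes and below -0.6 for 10.1%, and the leading principal component, with the group mean taken out, had rho = 0.83 with Mt2A and 0.76 with Slc30a2. For Mtf1, Slc39a14 and Slc30a1 it was -0.095, 0.14 and -0.21. Among the other ZnT exporters the median rho with Mt2A was 0.58, among the other ZIP importers -0.43, and over all genes 0.021. The ubiquitin ligases of muscle atrophy had the highest median of the lists, 0.64, with 7 of 12 above 0.6 and 1 below -0.6. The median was 0.55 for the NRF2 and antioxidant genes, with 8 of 20 above 0.6 and 1 below -0.6. It was 0.47 for the glucocorticoid-responsive genes (6 of 19 above 0.6) and 0.45 for the IL-6 family genes (3 of 12 above 0.6). The genes most like Mtf1 were Dicer1 (0.90), Scrib (0.88), Zfp652 (0.87), Polg (0.85) and Septin7 (0.85). For Slc39a14 they were Adck5 (0.72), Smpd2 (0.61), Efcab2 (0.58), Slc35b3 (0.56) and Nt5dc3 (0.56), and for Slc30a1 they were Bcl7a (0.75), Nrde2 (0.73), Patz1 (0.72), Tbc1d10c (0.72) and Mn1 (0.71). Without CC-Ex replicate 5, the rho with Slc30a1 was 0.71 for Nrde2 (rank 5) and 0.67 for Mn1 (rank 12). It was then 0.65 for Tbc1d10c (rank 19), 0.63 for Bcl7a (rank 33) and 0.60 for Patz1 (rank 52).

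The pathways by which metallothioneins are known to be induced were read from further lists, counted in the sedentary and in the exercised contrast (Ex vs. CC-Ex). These lists, and those of the next paragraph, were chosen with earlier results of these data known. Their counts beside the share over all genes are therefore a description and not a test of any pathway. Of the glucocorticoid-responsive genes, 12 of 19 rose in the sedentary contrast and 7 in the exercised, with medians of 1.39 and 1.68. Over all genes, 4.3% and 0.875% were called upward, with medians of 0.021 and 0.013. Examples were Ddit4, a brake on mTOR (2.85 and 2.83, edgeR adjusted p = 0.0138 and 0.0329), Cebpd, a transcription factor (2.58 and 2.67, 0.0147 and 0.0329), and Klf15, a regulator of amino acid use (1.39 and 1.68, 0.0236 and 0.0325). In fits with a rat left out, 6 to 12 rose in the sedentary contrast (6 without Sed replicate 2 or CC-Sed replicate 6) and 0 to 14 in the exercised (0 or 1 when an Ex rat was left out, 0 without CC-Ex replicate 5 or 6, and 14 without CC-Ex replicate 4). With the replicate block, or with the 12 rats fitted alone, 0 rose in the exercised contrast. Of the IL-6 family genes, 3 of 12 rose in the sedentary contrast and 2 in the exercised, among them Il6r, the IL-6 receptor (2.06 and 2.40, 0.0288 and 0.0350), and in the sedentary contrast Osmr, the oncostatin M receptor (1.07, 0.00596). The upward share over all genes was again 4.3% and 0.875%. Leaving out 1 rat gave 2 to 4 and 0 to 3, and 0 rose in the exercised contrast with upper-quartile scaling or the replicate block.

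Of the NRF2 and antioxidant genes, which share the defence against oxidants with the metallothioneins, 4 of 20 rose in Sed vs. CC-Sed and 1 in Ex vs. CC-Ex, beside 4.3% and 0.875% of all genes. Sesn1, a sestrin, rose in both (2.19 and 2.31, edgeR adjusted p = 0.0177 and 0.0342), and Hmox1, heme oxygenase, Cat, catalase, and Gclc, of glutathione synthesis, rose in the sedentary contrast (2.30, 0.87 and 0.67, edgeR adjusted p = 0.0164, 0.0171 and 0.0201). With 1 rat left out, the counts were 1 to 8 (1 without CC-Sed replicate 6) and 0 to 4, and 0 rose in the exercised contrast with upper-quartile scaling or the replicate block. Of the 10 copper handling genes, none passed in either contrast, with medians of -0.20 and -0.18 and smallest edgeR adjusted p-values of 0.0947 and 0.214. Of these lists no gene passed for training or the interaction.

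Since whole muscle was sequenced, more cells of a type and more RNA per cell cannot be told apart. Markers of other cells were set beside Mt2A. Each rho below was computed with the group mean taken out. It describes rats of the same group and not the difference between saline and CC rats. The summed level of the fibroblast markers (6 of 6 in the table) had rho = 0.0096 with Mt2A over the rats, that of the macrophage markers (5 of 6, Adgre1 not in the table) 0.18, and that of the endothelial markers (6 of 8) -0.39. The fibroblast sum ran from 380 to 2307 CPM in Sed, from 725 to 4240 CPM in Ex, from 459 to 1315 CPM in CC-Sed, and in CC-Ex from 148 to 1354 CPM. The macrophage sum ran from 16.0 to 118.7 CPM in Sed, from 27.97 to 169.4 CPM in Ex, from 33.6 to 141.9 CPM in CC-Sed, and in CC-Ex from 21.9 to 216.4 CPM. The erythroid markers (3 of 6) had the lowest rho with Mt2A, -0.48, and their sum ran from 49.9 to 129.8 CPM in Sed, from 92.2 to 209.6 CPM in Ex, from 50.5 to 409.1 CPM in CC-Sed, and in CC-Ex from 33.8 to 960.0 CPM. For the smooth muscle and pericyte (6 of 6), slow fibre (3 of 6), adipocyte (2 of 6), Schwann (3 of 6) and satellite cell markers (4 of 6), rho was -0.32, -0.22, -0.11, -0.057 and 0.10, and for the skeletal muscle fibre markers -0.19. None of the 6 lymphocyte markers was in the table. CC-Ex replicate 5, the rat with the highest Mt2A, had the lowest CC-Ex sum of the fibroblast (148 CPM), erythroid (33.8 CPM), smooth muscle and pericyte (108.1 CPM), Schwann (4.2 CPM) and satellite cell markers (14.7 CPM). Its slow fibre sum was 5.04 CPM, against a CC-Ex median of 2100 CPM. The part of these markers in the Mt2A result was not tested. Of the neutrophil markers, 1 of 6 was in the table (Lcn2), with rho = 0.50 and levels up to 4.79 CPM in CC-Sed and 6.54 CPM in CC-Ex against at most 1.97 CPM in saline rats, and its part in the result was not tested.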

How the data were processed

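Expression in the medial gastrocnemius was analysed for 24 rats (6 in each of Sed, Ex, CC-Sed and CC-Ex), grouped by the sample titles. The authors trimmed the reads with Trim Galore, quantified them with Salmon 1.10.2 on the transcriptome of mRatBN7.2 (Ensembl 112) and summed them to genes with tximport 1.36.0. The values the authors deposited are estimated counts, rounded to whole numbers and not normalised, with at least 10 in every rat. The library kit is stranded. The median biological coefficient of variation was 0.213, and that of Mt2A 1.23.

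Counts were scaled by TMM and tested in edgeR 4.0.16 (R 4.3.3) with the quasi-likelihood F test in a single model of the 4 groups, with Benjamini-Hochberg adjustment over all 10851 genes and a threshold of 0.05. Log2FC is the second group over the first, and the SE was derived from F. Correlations and exact tests used log2 CPM (prior count 2, 100000 permutations within groups). On simulated data of Sed vs. CC-Sed, 200 of 200 genes changed 4-fold were recovered with 11 false calls. Every gene was simulated independently and with the same biological coefficient of variation. The simulation thus did not cover a gene as variable as Mt2A or genes that move together. Alternatives were DESeq2 1.42.0, weighted limma-voom (3.58.1), upper-quartile scaling, count filters, a fit of the 12 rats of a contrast alone, a replicate block, the library number as covariate, prior count 0.5 and each rat left out. Likeness and spread without CC-Ex replicate 5 were added after the data were seen. The members and lists were chosen with earlier results of these data known. Named genes are the members, the zinc transporters, the genes most like each member (10 for Mt2A, 5 for the others), and in each list up to 4 passing genes with the largest Log2FC. CPM are not per length, and levels were not compared between genes except in the rank of Mt2A, which depends on transcript length.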

Additional observations from a re-analysis of the deposited data

Results flagged for a closer look

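In each group of 6 rats, the gap of the highest or lowest rat to its nearest neighbour was divided by the range of the group on the log2 CPM scale, for 18 genes of zinc handling. Of 72 groups, 3 exceeded Dixon's critical value of 0.625, and chance alone flags about 1 in 20. Slc30a1 was low in CC-Ex replicate 5, at 2.56 CPM against 4.73 to 6.26 CPM in the other CC-Ex rats (ratio 0.687). Mtf2, a Polycomb-associated protein named after metal response elements, was low in the same rat, at 4.18 CPM against 6.46 to 6.74 CPM (ratio 0.910). Slc30a6, an exporter of the Golgi, was low in CC-Ex replicate 3, at 2.80 CPM against 3.38 to 3.60 CPM (ratio 0.748). On that scale no group exceeded the value for Mt2A, although on the linear scale its highest CC-Ex rat, at 1295 CPM, was far from the next, at 47.5 CPM.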

How the results depend on the processing

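Genes passing in Sed vs. CC-Sed numbered 701, but 203 with a Log2FC of at least 1, 1336 with DESeq2 and 2474 with limma-voom. In Ex vs. CC-Ex they numbered 108, but 57 with that minimum, 685 with DESeq2, 1043 with limma-voom, 23 with upper-quartile scaling, 42 with the library number as covariate and 1 when the 12 rats were fitted alone. The library numbers were not balanced over the groups. They ran from 1 to 14 in CC-Ex, 4 to 21 in CC-Sed, 7 to 23 in Ex and 9 to 24 in Sed. The library number and the group are thus partly confounded. Leaving out 1 rat gave 173 (without CC-Sed replicate 6) to 1726 (without CC-Sed replicate 4) and 2 (without Ex replicate 2) to 847 (without CC-Ex replicate 4). Depth was not varied.

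The replicate numbers do not pair the rats (mean correlation of residuals 0.095 in Sed vs. CC-Sed and -0.17 in Ex vs. CC-Ex). With the replicate block, 1 gene passed in Ex vs. CC-Ex and the Log2FC of Mt2A there was 4.17. The block turned the direction of Mt2A in CC-Sed vs. CC-Ex (-0.73), for the interaction (-1.06) and in Sed vs. Ex (0.34) and of Slc39a14 in Sed vs. Ex (0.0023). Slc39a1 in Ex vs. CC-Ex (adjusted p = 0.0761) and Slc39a13 in Sed vs. CC-Sed (adjusted p = 0.0519) were no longer called with it.

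With limma-voom, Mt2A had a Log2FC of 3.08 in Ex vs. CC-Ex, -1.43 in CC-Sed vs. CC-Ex and -1.41 for the interaction, and Slc39a14 was at 0.035 in Sed vs. Ex. Upper-quartile scaling turned Slc39a14 in Sed vs. Ex to 0.0041. With the library number as covariate, Mt2A was at 0.32 in Sed vs. Ex and Mtf1 at -0.048 for the interaction. The cause of these changes was not tested. Of the 301 values recomputed under the alternatives other than leaving out a rat, 270 kept their direction and their side of the threshold or moved by less than the spread.

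With 1 rat left out, the Log2FC of Mt2A ran from 3.09 to 6.82 in Ex vs. CC-Ex, from -2.18 to 2.18 in CC-Sed vs. CC-Ex, from -0.30 to 0.33 in Sed vs. Ex and from -2.14 to 2.22 for the interaction. Slc39a14 ran from -0.043 to 0.020 in Sed vs. Ex. Mtf1 ran from -0.013 to 0.11 in Sed vs. Ex and from -0.0081 to 0.20 for the interaction, and Slc30a1 from -0.18 to 0.043 in CC-Sed vs. CC-Ex. Differences of mean log2 CPM ran from -0.28 to 0.29 for Mt2A, from -0.019 to 0.12 for Mtf1, from -0.042 to 0.023 for Slc39a14 and from 0.28 to 0.49 for Slc30a1 in Sed vs. Ex, and from -1.86 to 0.063 for Mt2A and from -0.23 to 0.028 for Slc30a1 in CC-Sed vs. CC-Ex. Pearson r ran from -0.37 to 0.015 for Mt2A and Mtf1, from -0.068 to 0.32 for Mt2A and Slc39a14, from -0.36 to 0.22 for Mt2A and Slc30a1, from -0.50 to -0.20 for Mtf1 and Slc39a14 and from -0.11 to 0.15 for Slc39a14 and Slc30a1.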

Other observations

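The chromosomal neighbours of Mt2A were looked up after its likeness to Nudt21 had been seen. In the RefSeq annotation (GRCr8), Mt2A lies between Mt1 and Mt3, and protein-coding genes of the table near this cluster are Nup93, a nuclear pore protein, on the side of Mt1 and Bbs2, Ogfod1 and Nudt21, in this order, on the side of Mt3. With the group mean taken out, the rho with Mt2A over the 24 rats was 0.90 for Nup93 and 0.92 for Nudt21. It was 0.38 for Bbs2 and 0.33 for Ogfod1, which lie between Nup93 and Nudt21. Bbs2 rose in both CC contrasts (Log2FC 0.50 and 0.60, edgeR adjusted p = 0.0275 and 0.0329), while Nudt21 (0.66 and 0.76, edgeR adjusted p = 0.0879 and 0.0894) and Nup93 (0.89 and 0.78, edgeR adjusted p = 0.131 and 0.221) did not pass. With 13.8% of all genes above a rho of 0.6, these values are a description.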
